A study of Mus musculus with 4 samples.

Results

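Trhde, Lrrc7, Olfm3 and Col11a1 are 4 long mouse genes. They lie, Olfm3 only with its smaller piece, where cover by called H3K9me3 islands most exceeded wild type in cultured CD8+ T cells lacking Suv39h1. H3K9me3 is trimethylation of lysine 9 on histone H3. An island is a stretch that the peak caller SICER marked as enriched in the chromatin immunoprecipitation and sequencing (ChIP-seq) reads. The 4 genes, of 21774 protein-coding genes on the mouse chromosomes, were selected on measured values, namely the excess of cover by knockout (KO) over wild-type (WT) islands in the 1 Mb bins that hold them. Every island of either genotype within 500 kb of each gene was then mapped, in coordinates of build mm10 counted from 1.

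The cells of both genotypes were CD8+ T cells of C57BL/6 background, the KO cells lacking Suv39h1 and the WT cells described as littermate. They were kept for 3 days under stimulation through CD3 and CD28 by antibodies, in medium with IL-2. Each genotype had 1 H3K9me3 library and 1 input library. Only the H3K9me3 libraries were used, and the inputs are not analysed here. How many mice gave the cells is not given in the sources used here, and with 1 library per genotype no difference below has a replicate check or a p-value. Since the choice of the genes used this same contrast, the higher KO cover around them is a description and supports nothing.

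SUV39H1 is a histone methyltransferase that writes H3K9me3, most of all in constitutive heterochromatin, where HP1 proteins bind the mark and help to keep the DNA silent. In CD8+ T cells it is known for silencing genes of the stem-like and memory programme as cells become effectors. Other methyltransferases, such as SUV39H2 and SETDB1, write the same mark. The 4 genes are best known outside the immune system. Trhde encodes the membrane-bound enzyme that degrades thyrotropin-releasing hormone. Lrrc7 encodes densin, a scaffold protein of the postsynaptic density of excitatory synapses. Olfm3 encodes optimedin, a secreted olfactomedin-domain protein of brain and retina, and Col11a1 encodes a chain of type XI collagen, a fibrillar collagen of cartilage.

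All 4 genes were long and stood in gene-poor surroundings. Trhde (chr10:114398820-114802302, minus strand) spans 403.5 kb and Lrrc7 (chr3:158067186-158561983, minus strand) 494.8 kb. Olfm3 (chr3:114904078-115125764, plus strand) spans 221.7 kb and Col11a1 (chr3:114030479-114220756, plus strand) 190.3 kb, against a median of 17.6 kb over 20558 autosomal protein-coding genes. Within 500 kb Trhde had 3 other protein-coding genes, Lrrc7 5, Col11a1 3 and Olfm3 none, against a median of 17 over all autosomal genes. Olfm3 and Col11a1 are neighbours, 683.3 kb apart, with no protein-coding gene between them. Their 500 kb surroundings overlap by 316.7 kb, so islands there were counted once in totals over all 4 genes.

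The sequence just outside 3 of the 4 starts is shown because an island reached a start in only 1 case, the outer start of Olfm3 in WT. The bases are those before the annotated gene, 5′ to 3′ on the gene's strand, from the RefSeq table of GRCm38.p6, the assembly named mm10, with the CG dinucleotides in capitals. The Olfm3 stretch (chr3:114903828-114904077) lay wholly in a WT island and in no KO island. The Trhde stretch (chr10:114802303-114802552), which lies inside the long noncoding RNA gene Gm15723, and the Col11a1 stretch (chr3:114030290-114030478) were in no island of either genotype.
Olfm3: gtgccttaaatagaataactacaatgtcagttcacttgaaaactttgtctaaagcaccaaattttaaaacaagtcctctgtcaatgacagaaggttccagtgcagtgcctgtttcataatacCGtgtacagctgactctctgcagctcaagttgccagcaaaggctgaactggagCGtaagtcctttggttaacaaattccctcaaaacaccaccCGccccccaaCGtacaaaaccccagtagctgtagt
Trhde: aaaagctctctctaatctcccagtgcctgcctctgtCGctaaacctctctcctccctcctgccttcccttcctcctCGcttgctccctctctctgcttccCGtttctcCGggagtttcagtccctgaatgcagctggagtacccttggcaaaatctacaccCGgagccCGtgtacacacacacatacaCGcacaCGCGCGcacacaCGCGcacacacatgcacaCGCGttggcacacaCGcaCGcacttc
Col11a1: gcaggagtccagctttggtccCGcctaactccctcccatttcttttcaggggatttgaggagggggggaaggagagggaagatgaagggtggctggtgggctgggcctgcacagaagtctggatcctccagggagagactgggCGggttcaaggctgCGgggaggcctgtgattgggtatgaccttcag

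Counted over the full 250 bases before the start, the covered start was the poorest in CG among these 3. The outer Olfm3 start held 4 CG and 44% G and C. The Trhde start held 16 CG and 58%, and the Col11a1 and Lrrc7 starts 7 CG each, with 62.4% and 57.2%. The 189 bases printed for Col11a1 stop at the edge of the annotated gene and hold 3 of its 7. The inner Olfm3 start, at a second promoter inside the gene, held no CG in its 250 bases. Over 32851 such RefSeq start windows the medians were 6 CG and 52.4%, and 92.1% of them held at least 1 CG. The motif searched was CG, which reads the same on both strands. Of the 5 start windows of the 4 genes, WT islands covered 1 and KO islands none. Over all start windows of 300 bases, 3% were covered in WT and 3.67% in KO, so the lack of KO cover at 5 starts is no result about these genes.

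KO islands lay on both sides of every start, at unequal distances. The KO gap that held the start was 5 kb at Lrrc7, 26 kb at Col11a1, 33.5 kb at Trhde and 56.5 kb at Olfm3. The Lrrc7 start window lay 0.761 kb from the nearest KO island, that of Col11a1 2.29 kb and that of Trhde 7.30 kb. The outer Olfm3 start lay 24.8 kb from one. Its inner start lay 1.21 kb from a KO island and 0.214 kb from a WT island.

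The 1 Mb bins behind the choice of genes stood at the top of the ranking. Among 2467 autosomal bins, the bin of Trhde (chr10:114000001-115000000) ranked 1, with WT islands over 21.5 kb and KO islands over 422 kb. The bin of Lrrc7 (chr3:158000001-159000000) ranked 2, with WT islands over 138 kb and KO islands over 480.5 kb. The bin that holds all of Col11a1 and the start of Olfm3 (chr3:114000001-115000000) ranked 4, with 79 kb and 415 kb. These bins had excesses of 400.5, 342.5 and 336 kb. The bin ranked 3 (chr11:41000001-42000000) had an excess of 340.5 kb and 1 protein-coding gene, which is not among the 4. Just below rank 4, the bin ranked 5 (chr1:41000001-42000000) had an excess of 328 kb and no protein-coding gene. The larger piece of Olfm3 lies in the next bin (chr3:115000001-116000000), which ranked 740 with 182 kb under WT islands and 265 kb under KO islands. The median excess over all bins was 12 kb, and 39.7% of bins had KO cover of at least 2 times the WT cover.

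**Figure D1:**
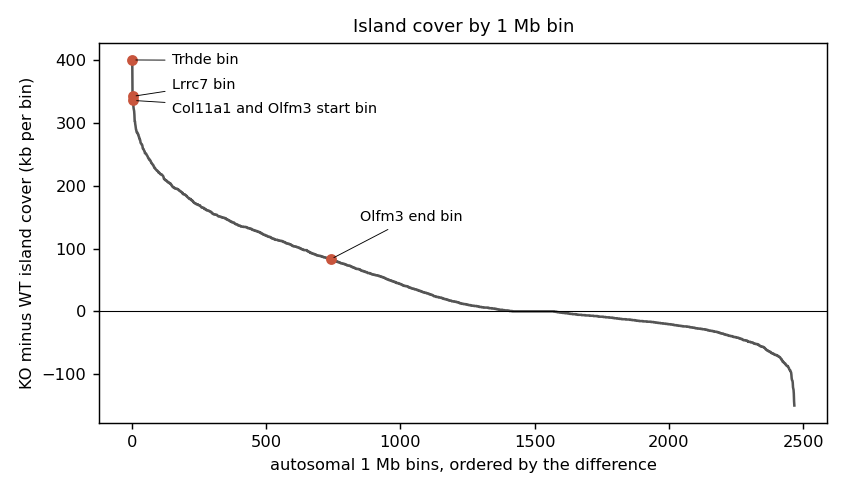
Difference in island cover, KO minus WT, in kb per bin (vertical axis) for 2467 autosomal 1 Mb bins in order of that difference (horizontal axis), with the bins that hold the 4 genes as points. The bins ranked 1, 2 and 4 exceed 330 kb, while the bin with the larger piece of Olfm3 has an excess of 83 kb.

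Within 500 kb of the genes, KO islands covered 2.10 to 7.63 times the length of WT islands. At Trhde 7 WT islands covered 68 kb and 43 KO islands 508 kb, which is 4.85% and 36.2% of the 1403 kb searched. At Col11a1 5 WT islands covered 53.5 kb and 35 KO islands 408 kb, or 4.49% and 34.3%. Among all autosomal protein-coding genes these WT values lay at percentiles 61.0 for Trhde and 58.3 for Col11a1, somewhat above the middle. At Lrrc7 18 WT islands covered 195.5 kb and 48 KO islands 538 kb, or 13.1% and 36.0%. At Olfm3 20 WT islands covered 230.3 kb and 44 KO islands 484.5 kb, or 18.8% and 39.7%. These last 2 already carried many WT islands, and the KO level was alike around all 4 genes. Over 20558 autosomal genes the median was 3.49% in WT and 2.43% in KO, while the mean was 5% in WT and 6.07% in KO. All WT islands of the genome together spanned 136.3 Mb, and all KO islands 249.2 Mb. The KO cover was at least 2 times the WT cover around 4 of 4 genes. Over all autosomal genes this share was 19.9%, and the reverse held for 32.9%. The choice of the genes fixed the first count, so nothing is read from it.

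**Figure D2:**
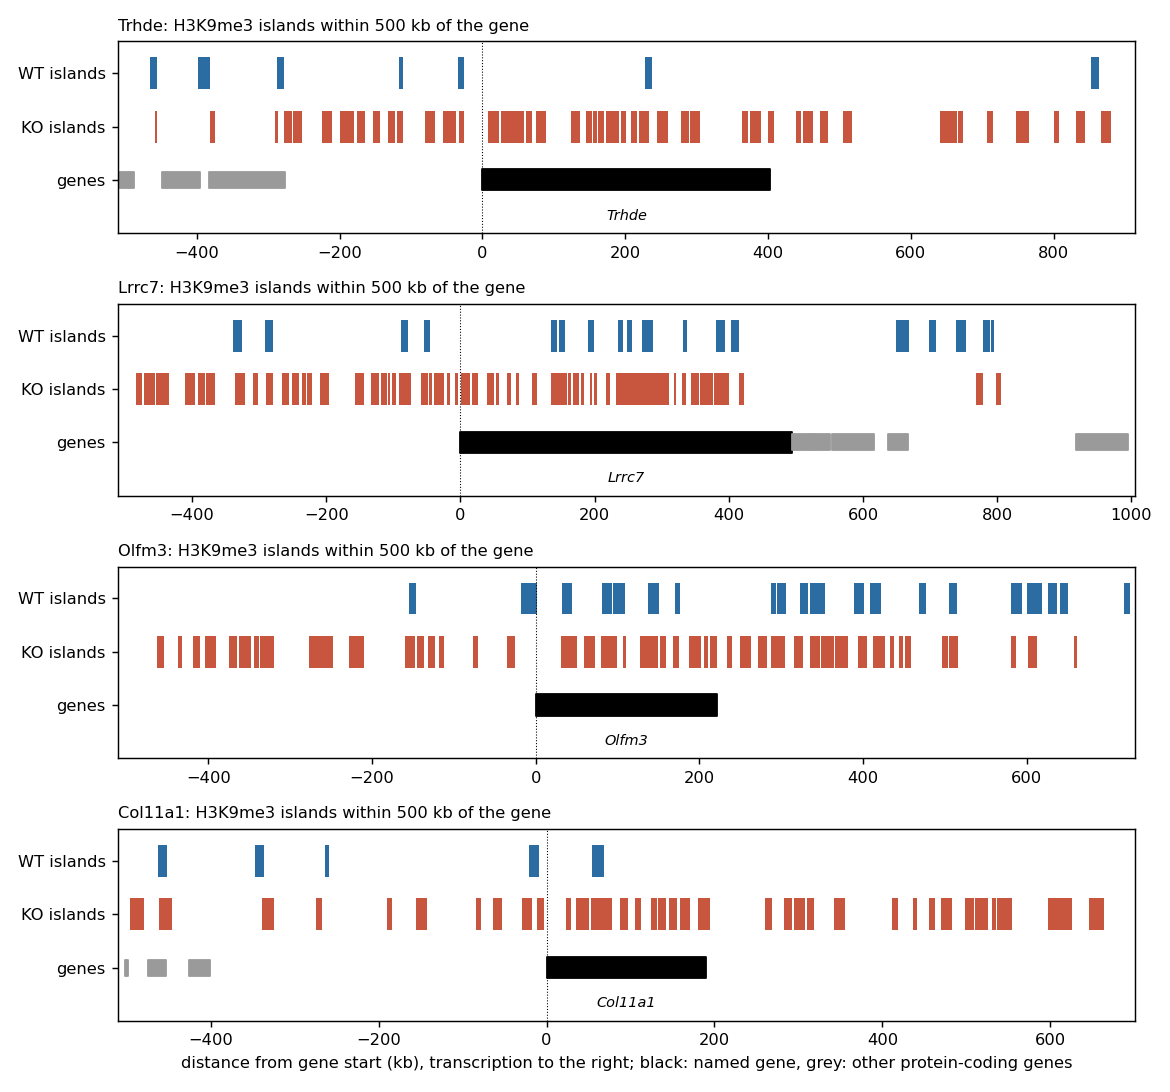
WT islands (blue) and KO islands (red) within 500 kb of each gene, by distance from the gene start in kb with transcription to the right. The named gene is the black bar and other protein-coding genes are grey bars. KO islands run through all 4 genes, and next to Lrrc7 they are absent over the grey genes beyond its end.

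The gene bodies themselves held KO islands over 52.2% to 58.2% of their length. In Trhde 1 WT island covered 9.50 kb (2.35%) and 18 KO islands covered 216.7 kb (53.7%). In Col11a1 1 WT island covered 15 kb (7.88%) and 10 KO islands 110.8 kb (58.2%). In Lrrc7 9 WT islands covered 93 kb (18.8%) and 21 KO islands 258.5 kb (52.2%). In Olfm3 6 WT islands covered 59.4 kb (26.8%) and 10 KO islands 120.3 kb (54.2%). The order of KO cover in percent was Col11a1, Olfm3, Trhde and Lrrc7, a spread of a few points, whereas WT cover ran from 2.35% to 26.8%. Among 2312 autosomal genes of 100 kb or more, the KO percentages ranked 6 for Col11a1, 16 for Olfm3, 17 for Trhde and 21 for Lrrc7. The median over those genes was 0 in both genotypes, 45.6% had an island in the body in WT and 46.1% in KO, and 23.7% had KO cover of at least 2 times the WT cover.

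The KO excess over the gene bodies was also taken without the islands of fewer reads per kb, which need not be those of fewer reads. With only the denser islands of each list, those whose reads per kb exceeded its median, the KO excess was 12.5 kb in Col11a1, where all islands gave 95.8 kb. In Trhde it was 87.2 kb, where all islands gave 207.2 kb. In Lrrc7 it was 164.5 kb, where all islands gave 165.5 kb, and in Olfm3 48.8 kb, where all islands gave 60.8 kb. KO cover itself fell from 258.5 to 208.5 kb in Lrrc7 and from 120.3 to 66.3 kb in Olfm3. WT cover fell there too, from 93 to 44 kb and from 59.4 to 17.5 kb. In Trhde KO cover fell from 216.7 to 87.2 kb and WT cover from 9.50 kb to 0. In Col11a1 KO cover fell from 110.8 to 27.5 kb and WT cover stayed at 15 kb. The cut dropped KO islands of 32 kb in Trhde (38.5 reads per kb) and 26 kb in Col11a1 (38.2). It kept the KO island of 79.5 kb in Lrrc7 (41.5).

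**Figure D3:**
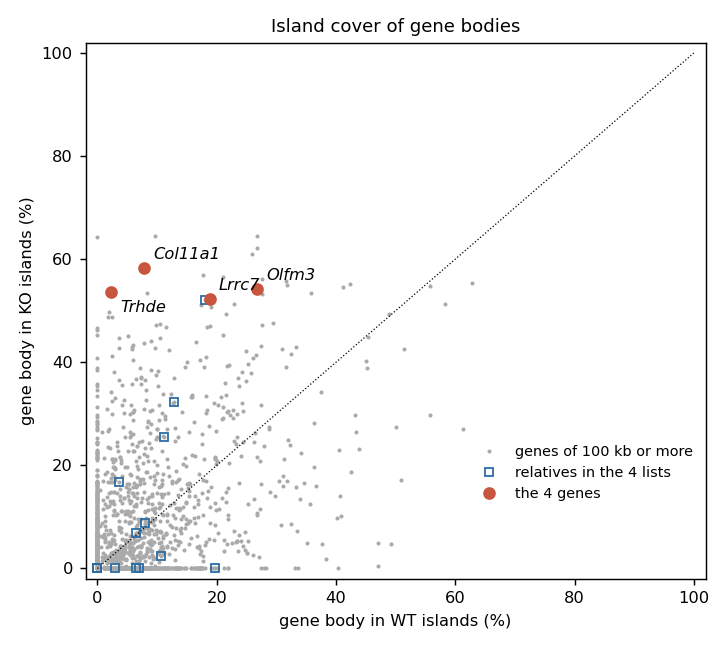
Percent of the gene body in WT islands (horizontal axis) and in KO islands (vertical axis) for 2312 autosomal genes of 100 kb or more (grey), relatives of the 4 genes of that length (blue squares) and the 4 genes (red). The dotted line marks equal cover, and the 4 genes lie between 52.2% and 58.2% in KO at WT values of 2.35% to 26.8%.

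Among gaps between WT islands mapped around the same gene, the longest lay at Trhde. A longer stretch without WT islands ran from inside Col11a1 toward Olfm3. It lay between the WT islands at chr3:114084501-114099500 and chr3:114749001-114757500. A gap of 615 kb between WT islands (chr10:113949501-114564500) took in the region beyond the 3′ end and much of the gene. Another of 254.5 kb (chr10:114574001-114828500) held the start. The 1 WT island in the gene (chr10:114564501-114574000) had 381 reads, or 40.1 per kb, and the KO island that met it (chr10:114568501-114583500) had 604 reads, or 40.3 per kb. The WT island shared 5.50 kb of its 9.50 kb with it. KO islands were spread along the whole gene, with a median gap of 3.5 kb between them. In 3 equal parts of the gene from its start to its end, KO islands covered 59.3%, 64.5% and 37.3%. The longest (chr10:114744001-114776000) was 32 kb long with 1232 reads and overlapped no WT island. It also covered 17.8 kb of the 18.5 kb of Gm40766, a long noncoding RNA gene inside Trhde.

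Around Trhde the KO excess lay on both sides, and upstream it faded toward the next protein-coding genes. Upstream WT islands covered 47.5 kb and KO islands 148.5 kb of 500 kb, and downstream 11 kb and 142.8 kb. In steps of 100 kb downstream of the gene's end, KO islands covered 35.8, 13, 31, 31.2 and 31.8 kb. WT islands lay in the last of these steps alone, over 11 kb. In steps of 100 kb upstream of the start, KO islands covered 38.5, 59, 41, 7.50 and 2.5 kb, and WT islands 7.50, 4.50, 10.5, 16 and 9 kb. The order of the genotypes thus turned beyond 300 kb, a stretch that holds part of Tph2, the neuronal tryptophan hydroxylase gene of serotonin synthesis, and Tbc1d15, a Rab GTPase-activating protein gene. Tph2 carried 11.5 kb of WT islands and 13.4 kb of KO islands. Tbc1d15 held 2.13 kb in WT and none in KO, and Rab21, a small GTPase gene of endosomes at the edge of the region, held none in either. Of 6 long noncoding RNA genes in this region, 4 were touched by KO islands and 1 by WT islands. Over 12637 long noncoding RNA genes these shares were 12.4% in KO and 9.17% in WT. The region was chosen for its KO excess, so nothing is read from the count. The touched genes included Gm40767, with 42.6 kb in KO and 10.6 kb in WT, as well as Gm31182 and Gm31267 in KO alone.

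The other WT islands near Trhde were few, and nearly all met a KO island. Upstream, the islands at chr10:114828501-114836000 and chr10:114914001-114918500 were 86.7% and 100% covered by KO islands. Those at chr10:115079501-115090000, chr10:115184001-115200000 and chr10:115258501-115267500 shared 2, 0.5 and 2 kb with one. The 1 downstream WT island (chr10:113938501-113949500) shared nothing and lay 2.5 kb from the nearest KO island.

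Lrrc7 carried the longest KO island of all those mapped here. It spanned chr3:158250501-158330000 inside the gene, 79.5 kb with 3300 reads or 41.5 per kb. In the KO list its length lay at percentile 99.996 and its reads per kb at percentile 65.9. In WT the same stretch held 3 separate islands of 16.5, 7.50 and 8.50 kb, at 39.0, 41.7 and 46.1 reads per kb, all wholly inside it. Those WT islands made up 40.9% of the KO island. A second long KO island (chr3:158403001-158427500, 24.5 kb) likewise spanned 2 WT islands of 10 kb each, with a gap of 2 kb between them in WT. Within Lrrc7, 75 kb of the 93 kb of WT cover (80.6%) lay in KO islands as well, and the KO islands added 183.5 kb. In 3 equal parts from start to end KO islands covered 49.99%, 67.3% and 39.4%, and WT islands 12.1%, 24.9% and 19.4%.

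The sides of Lrrc7 went opposite ways. Upstream, where no protein-coding gene lies within 500 kb, WT islands covered 45 kb and 25 KO islands 262.5 kb (52.5%), as densely as the gene itself. All 5 steps of 100 kb there held 44.5 to 59.98 kb in KO. Downstream WT islands covered 57.5 kb and KO islands 17 kb, the only 1 of the 8 flanks with less cover in KO, and no WT island there met a KO island. The largest KO gap around any of the 4 genes, 347 kb (chr3:157793001-158140000), began in that flank and ended inside Lrrc7. It held Cth (cystathionine gamma-lyase), Ankrd13c, the splicing factor gene Srsf11, Lrrc40 and the last part of Lrrc7. The largest WT gap near Lrrc7, 235 kb (chr3:157912001-158147000), ran over Ankrd13c, Srsf11 and Lrrc40 too. None of these 3 held an island in either genotype. Cth held 17.8 kb in WT, from an island of 18 kb with 695 reads (chr3:157894001-157912000), and none in KO, with the nearest KO island 101 kb away. Ptger3, a prostaglandin E2 receptor gene, had no island in either.

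Olfm3 had the most WT islands and the smallest KO excess of the 4. Within the gene, 48.5 kb of the 59.4 kb in WT islands (81.6%) was shared with KO islands, and 40.3% of the KO cover was shared with WT. The WT island over the outer start (chr3:114886501-114906000) was the exception. It was the longest WT island near Olfm3, 19.5 kb with 760 reads or 39.0 per kb, and the nearest KO island lay 7.50 kb away. The remaining 5 WT islands in the gene, from chr3:114936501-114948000 to chr3:115074501-115080500, all met KO islands. In 3 equal parts of Olfm3 from start to end KO islands covered 42.6%, 59.4% and 60.8%, and WT islands 18.2%, 50.6% and 11.7%. The middle part thus had nearly like cover in both genotypes, and the last part had the largest excess.

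On the far side of Olfm3 the genotypes came close and then crossed. Downstream WT islands covered 144.8 kb and KO islands 185.2 kb, a ratio of 1.28. In steps of 100 kb from the gene's end KO islands covered 54.5, 68, 41.2, 17.5 and 4 kb, and WT islands 15.5, 53.5, 19.5, 31 and 25.3 kb. From 300 kb onward WT cover was the higher. The WT islands at chr3:115529501-115541500, chr3:115544501-115555000 and chr3:115623001-115630000 there met no KO island, and the 1 KO island in the last step (chr3:115562001-115566000) was 4 kb long. Upstream of Olfm3, toward Col11a1, WT islands covered 26.1 kb and KO islands 179 kb.

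In Col11a1 and in the space between it and Olfm3 most of the KO cover lay outside WT islands. Between the genes (chr3:114220757-114904077), 2 WT islands covered 3.82% and 22 KO islands 34.6%, or 26.1 and 236.2 kb. In the 500 kb downstream of Col11a1 no WT island was called, while KO islands covered 185.2 kb in 16 islands. The longest of them (chr3:114627501-114656500) was 29 kb with 1160 reads, or 40 per kb. Upstream of Col11a1, WT islands covered 38.5 kb and KO islands 112 kb. KO cover of the 3 equal parts of the gene from start to end was 50.3%, 55.1% and 69.3%, and that of WT islands 14.8%, 8.82% and 0.

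The single WT island inside Col11a1 (chr3:114084501-114099500, 15 kb, 610 reads) lay wholly within a KO island of 26 kb (chr3:114083001-114109000, 993 reads). The densities were 40.7 reads per kb in WT and 38.2 in KO. Upstream, the WT island at chr3:114010001-114021500 met 2 KO islands, 1 on each side, and shared 5.50 kb with them. Farther off, Amy1, the salivary amylase gene, held 10.25 kb of a WT island and 8.75 kb of a KO island that overlapped. Amy2a1, a pancreatic amylase gene, had no island in its body in either genotype. Rnpc3, a gene of the minor spliceosome, had none in either and lay in the largest KO gap near Col11a1, 107 kb (chr3:113584501-113691500).

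**Figure D4:**
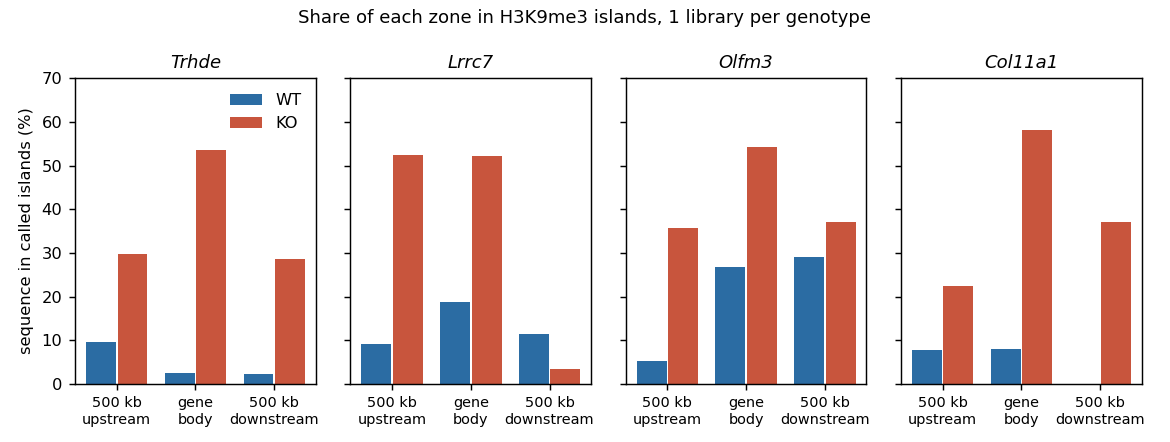
Percent of sequence in WT islands (blue bars) and KO islands (red bars) in the 500 kb upstream, the gene body and the 500 kb downstream of each gene, from 1 library per genotype. KO exceeds WT in 11 of the 12 zones, a count that the choice of the genes favoured. Downstream of Lrrc7 WT has 11.5% and KO 3.4%.

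Taking steps of 100 kb around all 4 genes, KO cover was higher in 31 of 40, WT cover in 7, and 2 held no island. Steps of neighbouring genes overlap between Col11a1 and Olfm3. The choice of the genes for KO excess favoured this count, and the share over all such steps of the genome was not taken. Nothing is therefore read from it. Of the 11 other protein-coding genes within 500 kb, WT islands touched the bodies of 4 (Tph2, Tbc1d15, Cth and Amy1) and KO islands those of Tph2 and Amy1. The remaining 7 had none. Over all 21774 protein-coding genes the body was touched in 12.4% by WT islands and in 12.3% by KO islands. Cover of the body was longer in WT at Tbc1d15, Cth and Amy1, and longer in KO at Tph2 alone. With 2 kb on each side it was also longer in KO at Amy1 (10.5 kb in WT, 10.75 kb in KO) and at Amy2a1 (0 and 0.428 kb).

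Most WT islands around the 4 genes met a KO island, while most KO islands met no WT island, as in the whole KO list. Of 50 WT islands, 37 (74.0%, exact Clopper-Pearson 95% interval 59.7 to 85.4) were overlapped by at least 1 bp of a KO island. Of 160 KO islands, 37 (23.1%, 16.8 to 30.4) were overlapped by a WT island. These intervals cover the counting of islands only. Over the whole lists the shares were 48.0% of 12371 WT islands and 24.9% of 25424 KO islands. The KO share here was thus near that of its list and is no trait of these genes. KO islands fill more sequence around these genes, which their choice ensured, and a WT island there has more KO sequence to meet. By gene, 6 of 7 WT islands near Trhde met one, 12 of 18 near Lrrc7, 15 of 20 near Olfm3 and 4 of 5 near Col11a1. For KO islands the counts were 6 of 43, 11 of 48, 15 of 44 and 5 of 35. KO islands without a WT partner lay a median of 97.5 kb from the nearest WT island near Col11a1, 53.5 kb near Trhde, 28.5 kb near Olfm3 and 27 kb near Lrrc7.

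In reads per kb the islands lay near the middle of their lists, while many KO islands were long for theirs. WT islands around the 4 genes were 3.5 to 19.5 kb long with a median of 10.5 kb, and KO islands 2.5 to 79.5 kb with a median of 10 kb. The whole lists had medians of 10 and 9 kb. By length 63 of 160 KO islands (39.4%) lay in the top 25% of the KO list and 22 (13.75%) in its top 10%. Of the 50 WT islands 14 (28%) lay in the top 25% of the WT list and 4 (8%) in its top 10%. Reads per kb, which are not scaled to depth, ran from 37.2 to 55.7 in WT with a median of 40.5, and from 35.9 to 56.2 in KO with a median of 40.5. The medians of the lists were 40.4 and 40.1. By gene the KO medians were 39.8 near Col11a1, 40.1 near Trhde, 40.6 near Lrrc7 and 41.3 near Olfm3. In the top 10% of their list by reads per kb were 5 of 50 WT islands and 20 of 160 KO islands, which is 10% and 12.5%. KO islands followed each other closely here. The median gap between KO islands was 6.5 kb near Lrrc7, 8 kb near Olfm3, 10.8 kb near Trhde and 13.8 kb near Col11a1, against 24.5 kb over all autosomes. WT gaps near these genes had medians of 30.5, 27, 127.5 and 88.8 kb in the same order of genes, against 70.5 kb over all autosomes. The choice of the genes for KO excess favours long and closely spaced KO islands, so nothing is read from the KO lengths and gaps.

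**Figure D5:**
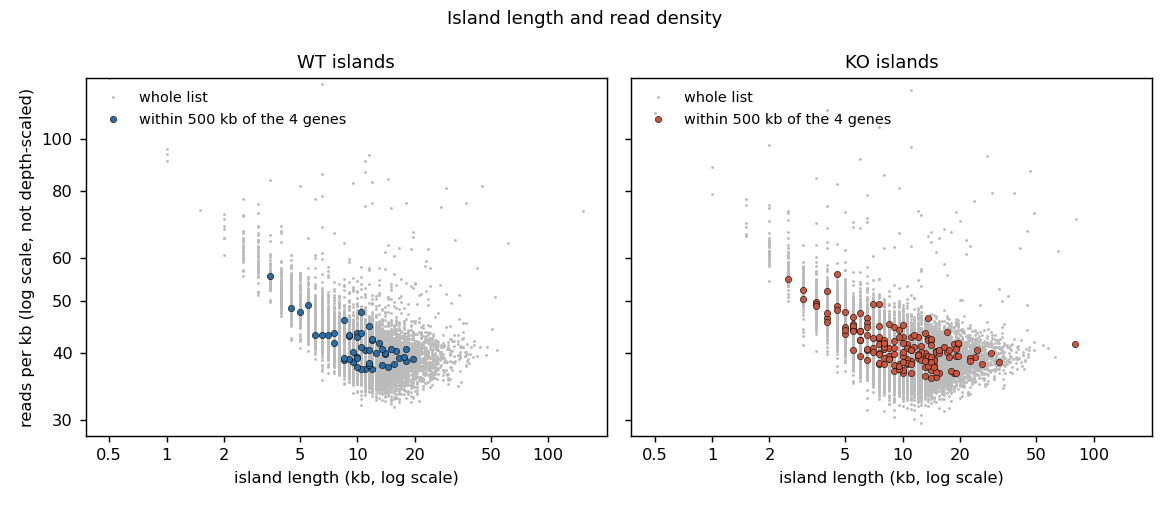
Length in kb (horizontal, log scale) and reads per kb (vertical, log scale, not scaled to depth) of all islands (grey) and of those within 500 kb of the 4 genes (coloured), for WT and KO. The islands near the 4 genes lie within the cloud of their list, and above the axis limit of 130 reads per kb are 10 WT and 21 KO islands, none of them near these genes.

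Where islands of both genotypes met, their densities were close, but so were those of the whole lists. The 1st percentile was 34.3 reads per kb in the WT list and 34.1 in the KO list, with medians of 40.4 and 40.1. The closeness in pairs therefore does not show equal H3K9me3 signal. There were 42 overlapping pairs, made of 37 WT and 37 KO islands. The median was 40.02 reads per kb for the WT islands and 40.7 for the KO islands of these pairs, and the KO island was the denser in 23 pairs and the WT island in 19. The KO island was longer in 25 pairs and the WT island in 16. In 12 pairs the WT island lay wholly inside the KO island, and in 5 the KO island lay wholly inside the WT island. Short islands are denser in both lists, and the WT list has 5547695 reads in islands and the KO list 10020253. The part of library depth, or of the input, in these values was not tested.

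Relatives of the 4 genes did not share one direction. For each gene with 2 kb on each side, without the 4 genes themselves, WT islands touched 17 of 53 relatives and KO islands 12. Over all 21774 protein-coding genes these shares were 14% and 13.7%, with a median difference of 0 in all genes and in each of the 4 lists. Over all genes 9.71% had longer cover in KO and 9.86% in WT. The part of gene length in these counts was not tested.

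Of 13 other peptidases of the M1 family and genes of the thyrotropin-releasing hormone system, 2 had longer cover in KO and 1 in WT. Trhr, the receptor of the hormone that TRHDE degrades, had WT islands over 4.08 kb and KO islands over 16.5 kb, and Erap1, which trims peptides for MHC class I, 6.5 kb in KO alone. Lvrn, an aminopeptidase gene of the placenta, held 9.68 kb in WT and 1.18 kb in KO. Trh itself had no island.

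Among 18 other LAP (leucine-rich repeat and PDZ) and postsynaptic scaffold genes 4 had longer cover in KO and 4 in WT. Dlg2, which encodes PSD-93, held 252 kb in WT and 636.5 kb in KO over a gene of 1973 kb. Dlgap1, a partner of the PSD-95 family, held 96 and 218 kb, Dlgap2 60.5 and 67 kb, and Dlg1 13.5 and 14.5 kb. In WT alone were Erbin (20 kb), a LAP gene like Lrrc7, Actn2 (9.73 kb), Homer1 (6.5 kb) and Dlgap3 (5.50 kb).

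Of 12 other genes with an olfactomedin domain, 2 had longer cover in KO and 2 in WT. The latrophilin gene Adgrl3, an adhesion receptor of synapses, held 29 kb in WT and 135.5 kb in KO. Olfm4, a secreted protein of gut crypts and neutrophils, held 16.7 kb in KO alone. Its relatives Adgrl2 (12 kb) and Olfm2 (10.5 kb) had islands in WT alone.

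Of 10 other fibrillar collagen genes, 2 had longer cover in KO and 3 in WT. Col5a2 and Col3a1, neighbours on chromosome 1 that encode chains of type V and type III collagen, held 69.2 and 25.2 kb in KO against 25.2 kb and none in WT. Col24a1 had WT islands over 27.5 kb and KO islands over 6.5 kb. Col1a2 (8 kb) and Col27a1 (5.49 kb) were covered in WT alone.

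Other long genes had WT and KO cover like that of the 4. Likeness was taken as the distance in percentage points between the pairs of WT and KO percent of the gene body, over genes of 0.5 to 2 times the length, which gave 645 to 2084 genes per comparison. Nearest to Trhde were Spock1, a proteoglycan gene (1.95% and 49.7%, distance 3.98), the neuronal kinase gene Mapk10 (distance 4.86) and Cnbd1 (4.94). Nearest to Lrrc7 were B3galt1, a galactosyltransferase gene (19.1% and 50.8%, distance 1.51), Tafa2 (4.14) and Nxph1 (8.83). Nxph1, which encodes a ligand of neurexins, was also the nearest to Olfm3 (27.6% and 53.2%, distance 1.31). The potassium channel gene Kcnc2 lay at a distance of 4.99 from Olfm3. Nearest to Col11a1 were the synaptic adhesion gene Lrrtm3 (8.35% and 53.5%, distance 4.75), the phosphatase gene Ptprz1 (6.44) and Skint4 (8.05).

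As a check of the labelled cell type, none of 10 defining CD8+ T cell genes, among them Cd8a, Cd8b1, Cd3e and Lck, had an island in either genotype. WT islands touched 4 and KO islands 2 of 12 markers of other cells a culture could hold. Klrb1c and Adgre1 were covered in both, and Pax5 and Ncr1 in WT alone. Over all protein-coding genes the shares were 14% in WT and 13.7% in KO, so 0 of 10 differs little from the background and checks the cell type only weakly. An island list measures no RNA and does not count cells.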

How the data were processed

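H3K9me3 ChIP-seq of 1 WT and 1 Suv39h1 KO library was analysed from 1 deposited list of islands per library. Bowtie2, SICER 1.1 and mm10 are named in the submitters' processing notes. Not given in the sources used here were the window, gap and false discovery settings and the use of the input. The authors deposited, for each island, a whole-number count without a header, read here as ChIP reads in the island, with no scaling to depth per its values. Coordinates lie on a grid of 500 bp and were converted to count from 1.

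Gene positions came from RefSeq GRCm38.p6, without genes on unplaced scaffolds, and strands and start windows from its table of starts, which matched all 4 genes. Exons and introns were not used here, so positions are given as inside or outside the gene. Cover is island length clipped to a region. Analyses used Python 3.11.15, numpy 2.4.6, pandas 2.3.3 and scipy 1.17.1, and the cover and joining steps were tested on simulated islands. The genes, lists and settings were chosen with earlier results of these data known. Named are the 4 genes, every protein-coding gene within 500 kb, list members with an island, and the 3 most alike genes each, of which some are not reported here. Other genes named were chosen after their values were seen. No replicate exists, so no test between genotypes was made.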

Additional observations from a re-analysis of the deposited data

How the results depend on the processing

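KO cover exceeded WT cover at each of the 4 genes, in the body and within 500 kb, in all 40 values under the settings run. The choice of the genes for KO excess favours that count, and keeping islands of at least 2 kb changed none of the values. Nothing is therefore read from the count. The lowest excess was 12.5 kb, for the Col11a1 body with only islands whose reads per kb exceeded their list's median. That setting gave a KO excess of 612.2 kb over the joined surroundings of the 4 genes (1263 kb with all islands) and 312.9 kb over their bodies (529.3 kb), 26 WT and 88 KO islands, excesses of 178, 226, 118.2 and 125 kb around Trhde, Lrrc7, Olfm3 and Col11a1, and overlapped shares of 53.8% in WT and 15.9% in KO. With the KO list reduced to the WT number, keeping islands with most reads, 96 KO islands were left and 58% of WT islands were overlapped. The excess was then 216 kb around Lrrc7 and 140.2 kb around Olfm3, and 98.5 and 36.3 kb over their bodies. Joining islands less than 5 kb apart gave 105 KO islands, of which 32.4% were overlapped. With 250 kb on each side there were 33 WT islands and the excess around Col11a1 was 210.3 kb, and with 1000 kb it was 563.5 kb around Lrrc7 and 413.5 kb around Olfm3. Requiring 50% of an island to be covered gave 58% in WT and 16.25% in KO. Fewer islands, or less or more sequence, enter by construction in these settings. Islands of at least 2 kb, 1000 kb on each side and 10 kb around relatives left the cover summed over the 4 genes, the island numbers and the overlap shares within 1.5 times or their intervals. No paired analysis was possible because there is a single H3K9me3 library for each genotype. Island lists do not show signal below the calling threshold, so a stretch listed in 1 genotype alone does not show absence in the other.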
